A study of Mus musculus with 6 samples.

Results

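Integrin genes were examined in F4/80+ CD11b+ macrophages sorted from the peritoneal cavity of mice with ID8 ovarian tumors. The members are all genes of the measured panel whose symbol starts with Itga or Itgb. These were 8 of 754 genes, with 5 alpha chains (Itgam, Itgax, Itgal, Itga4 and Itga5) and 3 beta chains (Itgb1, Itgb2 and Itgb7), out of 26 integrin chain genes in the RefSeq annotation of the mouse. Their transcripts were counted directly, with no amplification step, by the barcoded probes of a NanoString nCounter panel. There were 3 samples of PBS mice and 3 of mice treated with nanoparticles that carried mRNA for mouse IRF5 (IRF5-NPs). IRF5 is a transcription factor that favors inflammatory polarization of macrophages. By the labels all mice were adult C57BL/6J mice that had carried ID8 cells, a mouse ovarian cancer line, for 7 weeks, and treatment was given 2 times into the peritoneum, on day 1 and on day 5, at 30 µg of mRNA a time for the nanoparticles. The methods of the paper differ from this on some points, with a higher dose, a shorter time of tumor growth, a second mRNA for the kinase IKKβ in the particles, female albino mice of this strain, and ID8 cells that express VEGF. None of these samples received empty or GFP nanoparticles, so that effects of the particle and of its mRNA cannot be told apart.

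Integrins are cell surface receptors made of 1 alpha and 1 beta chain, which bind matrix proteins or counter-receptors on other cells and link them to the cytoskeleton. Leukocytes share the beta chain Itgb2 (CD18) among several alpha chains. With Itgam (CD11b) it forms Mac-1, or complement receptor 3, which binds iC3b, fibrinogen and ICAM-1 and serves in phagocytosis and adhesion. With Itgax (CD11c) it forms complement receptor 4, which is high on dendritic cells and on several tissue macrophages, and with Itgal (CD11a) it forms LFA-1, the main receptor for ICAM-1 on lymphocytes and monocytes. Itgb1 pairs with many alpha chains, among them Itga5 in the classical fibronectin receptor and Itga4 in VLA-4, which binds VCAM-1. Itga4 also pairs with Itgb7 in a receptor known from homing to the gut. CD11b was a marker of the sort, so that the cells had been selected for the protein of Itgam, and CD11c is not named among the markers of the sort.

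Itgam, Itgax and Itgal all lie on chromosome 7, and Itgam and Itgax are direct neighbors there, with 0 protein-coding genes annotated between them in RefSeq. The sequence before the start of these neighbors is shown because their messages differed in how they compared between the groups. Each run holds 220 bases, from 250 to 31 bases before the start in the RefSeq promoter table of build GRCm38.p6, on the plus strand, at chr7:128062390-128062609 for Itgam and chr7:128129300-128129519 for Itgax. Capitals mark each match to 3 motifs searched on both strands, which were GAGGAA, a core bound by the myeloid factor PU.1, TGANTCA, the site of AP-1, and the interferon-stimulated response element, here GAAA, then 2 bases of any kind, then GAAA.
Itgam: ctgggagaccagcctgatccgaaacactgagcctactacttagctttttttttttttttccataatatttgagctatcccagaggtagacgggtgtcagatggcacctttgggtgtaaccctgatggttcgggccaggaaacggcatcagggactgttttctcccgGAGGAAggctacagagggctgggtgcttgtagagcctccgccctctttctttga
Itgax: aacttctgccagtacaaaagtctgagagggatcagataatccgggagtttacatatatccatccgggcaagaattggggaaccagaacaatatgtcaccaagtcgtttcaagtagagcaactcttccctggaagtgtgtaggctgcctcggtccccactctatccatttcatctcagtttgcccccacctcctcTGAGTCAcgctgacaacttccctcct
The capitals in Itgam are 1 match to GAGGAA, which 20.4% of all 32851 promoter stretches of this length hold. The capitals in Itgax are 1 match to TGANTCA, which 6.12% hold. The interferon-stimulated response element, held by 2.63%, has 0 matches in either stretch. The 3 motifs overlap nowhere in these stretches. The matches are descriptions of letters and not measured sites. Of the other members Itga4, Itga5, Itgb1 and Itgb7 were in the table, and 1 of them, Itga5, held a match, to GAGGAA.

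Each sample held between 683472 and 1830318 counts over all genes. A background was set for each sample at 2 SD above the mean of its negative controls, and it lay between 25.6 and 37.8 normalized counts in 5 samples and at 79.4 in IRF5-NP replicate 3, the sample with the fewest counts. PBS replicates 2 and 3 differed by no more than the sampling noise of their counts (chi-square of 1.07 per degree of freedom) and entered as a single averaged sample, so that n was 2 for PBS and 3 for IRF5-NPs. The replicates numbered 1 stood apart from the others of their group, with a chi-square per degree of freedom of 54.1 to 180, against 7.10 between IRF5-NP replicates 2 and 3. The labels do not say whether the samples came from separate mice. The legend of the paper's figure with sorted peritoneal macrophages gives 5 biologically independent samples, which differs from the 3 a group here. The p-values therefore measure the spread between these samples, which may be technical. Macrophage markers were present, with 8 of 9 listed genes measured and 0 of them below background in all samples, and the sum of the 8 lay between 56201 and 73873 normalized counts with PBS and between 41875 and 76913 with IRF5-NPs. The panel probe for Irf5 read between 1929 and 2573 normalized counts with PBS and between 1960 and 2358 with IRF5-NPs (limma adjusted p = 0.947). The delivered mRNA was codon-optimized by the paper's methods, and whether the probe binds it is not given in the sources used here.

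With IRF5-NPs the messages of Itgax and Itgal fell 3.68-fold, to a level near background, and 3.49-fold, while that of Itgam, on the same chromosome and with the same beta chain, was not lower by the test, and the 3 beta chains had higher means. Past the threshold of 0.05 on limma's adjusted p were 2 of the 8 integrin genes, both lower, where 9.55% of all 754 genes passed in either direction, 7.03% as lower and 2.52% as higher. The 5 genes with values that did not overlap between the groups were Itgb1 and Itgb2 as higher and Itgax, Itgal and Itga5 as lower, and over the panel 37.4% of genes did not overlap, 17.0% as higher and 20.4% as lower. With samples scaled to a common median the split over the panel was 42 higher and 36 lower, and with quantile normalization 35 and 40, against 19 and 53 in the reported fit. The median log2 fold change of IRF5-NPs over PBS was 0.35 over the 8 genes and -0.03 over all 754. Deviations from the group means correlated weakly between samples of the same replicate number (0.20, 0.19 and 0.10 for numbers 1, 2 and 3). PBS replicate 3 correlated more with IRF5-NP replicate 2 (0.16). In a fit of 6 separate samples with the number as a block 5 integrin genes passed. Over the panel 17.9% of genes did, 6.9% as higher and the rest as lower. The 5 were Itgb2 and Itgb7 as higher and Itgax, Itgal and Itga5 as lower. Any fit of 6 separate samples counts PBS replicates 2 and 3 as 2, although they differed by no more than sampling noise. Its p-values, here and below, may be too small. The 6 separate samples without the block passed Itgb2 as higher and Itgax and Itgal as lower, where 16.0% of the panel passed, 4.91% as higher and 11.1% as lower.

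**Figure D1:**
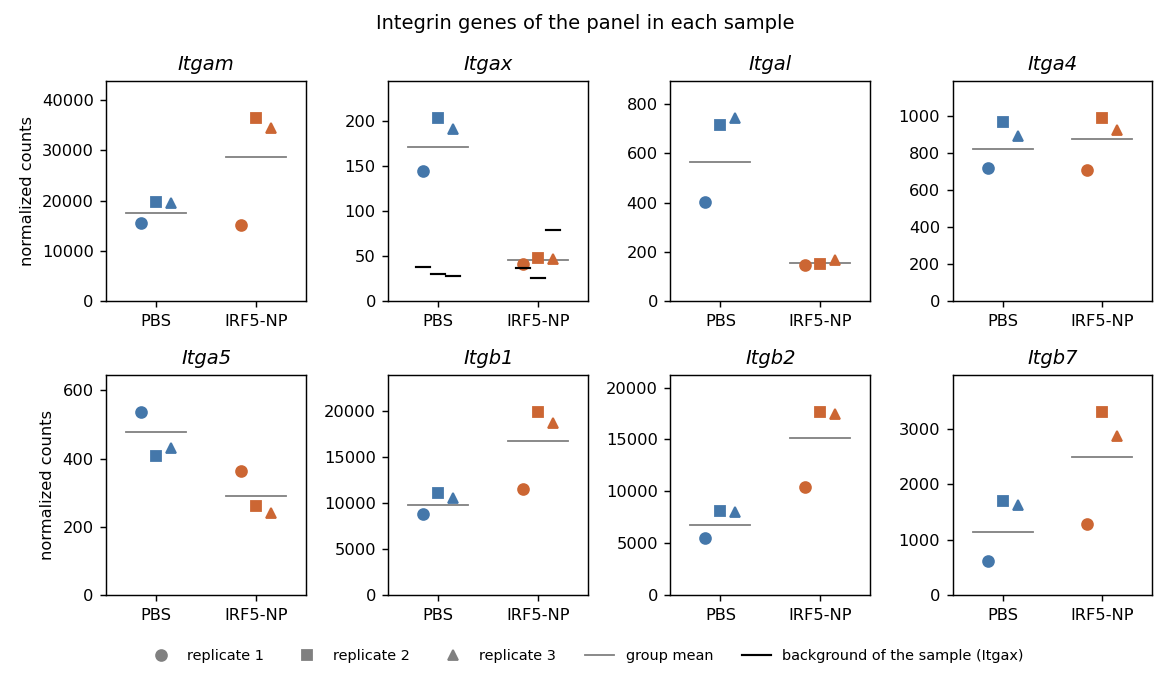
Normalized counts (linear axis from 0) of the 8 integrin genes in each sample, PBS in blue and IRF5-NP in orange, with the replicate number as the marker shape, the group mean with PBS replicates 2 and 3 counted as 1 sample as a grey line, and the background of each sample as a black dash in the panel of Itgax. Itgax and Itgal are low in every IRF5-NP sample, whereas Itgam is high in IRF5-NP replicates 2 and 3 and at the PBS level in IRF5-NP replicate 1.

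Itgam, the gene of the sort marker CD11b, had 15550, 19762 and 19441 normalized counts in PBS replicates 1, 2 and 3. In IRF5-NP replicates 1, 2 and 3 it had 15177, 36473 and 34393. The groups overlapped, since IRF5-NP replicate 1 was the lowest of the 6 samples, whereas the other IRF5-NP replicates lay well above every PBS sample. PBS averaged 17576 ± 2864 (SD, n = 2) and IRF5-NP 28681 ± 11741 (SD, n = 3). The log2 fold change of 0.61 had a standard error of 0.44 and a 95% interval of -0.41 to 1.64 (limma adjusted p = 0.473), so that Itgam is not shown to have stayed the same. Against the PBS sample of the same number, Itgam was at 0.976, 1.85 and 1.77 times in replicates 1, 2 and 3, and the replicate block gave 0.56 (limma adjusted p = 0.301). Without IRF5-NP replicate 1 the log2 fold change was 1.02 (limma adjusted p = 0.0580). Scaled to the positive control probes, in place of the housekeeping genes of the authors, Itgam was at -0.26, when the median of all genes was at -0.88. The gene of the other sort marker, Adgre1 (F4/80), had 6523 to 9145 normalized counts with PBS, 8749 in IRF5-NP replicate 1, and 25506 and 22544 in IRF5-NP replicates 2 and 3, so that it was high in the same samples as Itgam (log2 fold change 1.15, limma adjusted p = 0.181, and 1.07 with an adjusted p of 0.0481 with the replicate block).

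Itgax, the gene of CD11c, had 145, 204 and 192 normalized counts in PBS replicates 1, 2 and 3. With IRF5-NPs it had 40.9, 48.5 and 46.8 in replicates 1, 2 and 3. Every IRF5-NP sample lay below every PBS sample, and the 3 treated samples were close to each other. PBS averaged 171 ± 37.0 (SD, n = 2) and IRF5-NP 45.4 ± 3.97 (SD, n = 3). The log2 fold change was -1.88 (standard error 0.27, 95% interval -2.52 to -1.24, limma adjusted p = 0.00589), or 3.68-fold lower. Whichever of the 6 samples was left out, Itgax passed, at values between -2.10 and -1.81. With IRF5-NPs the level was near the detection limit. The probe had 43, 44 and 18 counts in IRF5-NP replicates 1, 2 and 3 against a background of 39.0, 23.2 and 30.5 counts, so that it was above background in 2 of the 3 samples, in replicate 1 by little. The exact 95% Poisson interval in replicate 3 was 10.7 to 28.4 counts, which holds the negative control mean of 17.2, and it covers counting error only. After subtraction of the background the log2 fold change was -3.80, with an adjusted p of 0.282 by limma.

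Itgal, the alpha chain of LFA-1, had 401, 714 and 745 normalized counts with PBS and 146, 152 and 166 with IRF5-NPs in replicates 1, 2 and 3. It was lower in all 3 treated samples than in any PBS sample and, unlike Itgax, above background in all 6. PBS averaged 565 ± 232 (SD, n = 2) and IRF5-NP 155 ± 10.6 (SD, n = 3). The log2 fold change was -1.80 (standard error 0.29, 95% interval -2.47 to -1.14, limma adjusted p = 0.00844). This is 3.49-fold lower. Without IRF5-NP replicate 3 it was at -1.85 and did not pass (limma adjusted p = 0.0650).

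Itgb2, the beta chain that Itgam, Itgax and Itgal share, had 5499, 8075 and 8019 normalized counts in PBS replicates 1, 2 and 3. It had 10421, 17692 and 17446 in the IRF5-NP replicates. All 3 treated samples lay above all PBS samples, the opposite order to that of Itgax and Itgal. PBS averaged 6773 ± 1802 (SD, n = 2) and IRF5-NP 15186 ± 4129 (SD, n = 3). The log2 fold change of 1.15 (standard error 0.34, 95% interval 0.36 to 1.94) missed the threshold (limma adjusted p = 0.0715). Set against the PBS sample of the same number it was at 1.89, 2.19 and 2.18 times. With the replicate block, which counts PBS replicates 2 and 3 as 2 samples, it passed at 1.06 (standard error 0.21, limma adjusted p = 0.0169). Without IRF5-NP replicate 1 it passed as well, at 1.40 (limma adjusted p = 0.0345).

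Itgb7, which pairs with Itga4, had 622, 1693 and 1622 normalized counts in PBS replicates 1, 2 and 3 and 1286, 3307 and 2869 in the IRF5-NP replicates. The groups overlapped because IRF5-NP replicate 1 lay below PBS replicates 2 and 3. Both replicates numbered 1 were the lowest of their group, and against the PBS sample of the same number Itgb7 was at 2.07, 1.95 and 1.77 times. Without the block the log2 fold change was 1.18 (standard error 0.51, limma adjusted p = 0.197), and with the block it was 0.94 and passed (standard error 0.15, limma adjusted p = 0.00855). Leaving out PBS replicate 1 brought the unblocked value down to 0.47. Itgb1, the beta chain of VLA-4 and of the fibronectin receptor, had 8815, 11114 and 10545 normalized counts with PBS and 11489, 19936 and 18717 with IRF5-NPs. Its groups did not overlap, although IRF5-NP replicate 1 exceeded the highest PBS sample by little. Its log2 fold change of 0.73 (95% interval -0.03 to 1.50, limma adjusted p = 0.216) did not pass, with the block either (0.68, limma adjusted p = 0.0991). Itgb1 was at -0.14 with scaling to the positive controls, relative to a median of -0.88 over all genes.

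Itga5, the alpha chain of the fibronectin receptor, had 538, 407 and 432 normalized counts with PBS and 365, 261 and 242 with IRF5-NPs in replicates 1, 2 and 3. Each treated sample lay below each PBS sample, with a log2 fold change of -0.74 (standard error 0.26, 95% interval -1.33 to -0.14) that did not pass (limma adjusted p = 0.109). With the replicate block it passed at -0.68 (limma adjusted p = 0.0299). Itga4 had 720, 970 and 894 normalized counts with PBS and 708, 992 and 925 with IRF5-NPs, so that the groups overlapped throughout. Its log2 fold change of 0.08 had a 95% interval of -0.47 to 0.63 (limma adjusted p = 0.880), and the sign turned in some settings, to -0.79 with scaling to the positive controls. Against the PBS sample of the same number Itga4 was at 0.984, 1.02 and 1.04 times.

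**Figure D2:**
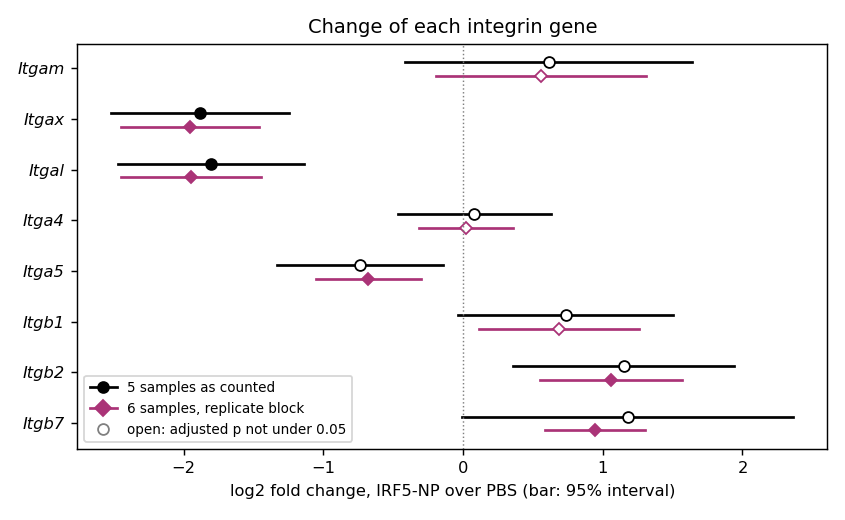
Log2 fold change of IRF5-NPs over PBS for the 8 integrin genes with 95% intervals from limma, with 5 samples as counted in black circles and with 6 separate samples and the replicate block in purple diamonds. Filled markers have an adjusted p under 0.05, which are Itgax and Itgal in both fits, and Itga5, Itgb2 and Itgb7 in the fit of 6 samples with the block.

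The ratio of a pair of chains within a sample does not depend on the scaling between samples, and it was compared between the groups for 7 pairs by a two-sided exact permutation test, in which the 10 splits of 5 samples allow no p below 0.1, so that no pair could pass the threshold. Probes differ in how well they bind, and only the change of a ratio is read here, not its level. The log2 ratio of Itgax to Itgam was -6.73, -6.59 and -6.66 in PBS replicates 1, 2 and 3 and -8.50, -9.52 and -9.49 in the IRF5-NP replicates. It was lower by 2.49 on the log2 scale with IRF5-NPs, or 5.63-fold (exact permutation p = 0.1, adjusted over the 7 pairs 0.14). The SD of this log2 ratio was 0.08 (n = 2) with PBS and 0.58 (n = 3) with IRF5-NPs. After background subtraction it was lower by 4.41, or 21.2-fold (exact permutation p = 0.2). The SD was then 0.12 (n = 2) with PBS and 2.47 (n = 3) with IRF5-NPs. Itgax lay near or below background with IRF5-NPs, so that the size of this fold is not settled. In the samples numbered 1 the log2 ratio was -6.73 with PBS and -8.50 with IRF5-NPs, while Itgam was at 0.976 times. This sets 1 sample against 1, and what the number marks is not given. In IRF5-NP replicate 1 Itgax had 43 counts against a background of 39.0.

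Against their common beta chain Itgb2, all 3 alpha chains on chromosome 7 were lower with IRF5-NPs in each treated sample than in each PBS sample. Itgax over Itgb2 was lower 8.17-fold on the values as deposited and 30.9-fold after background subtraction, so that the size of this fold is not settled (exact permutation p = 0.1 in each). Itgal over Itgb2 was lower 7.74-fold (9.10-fold after background subtraction, exact permutation p = 0.1 in each). Itgam over Itgb2 was lower 1.45-fold, with log2 ratios of 1.50, 1.29 and 1.28 with PBS and 0.54, 1.04 and 0.98 with IRF5-NPs (exact permutation p = 0.1). Against Itgb1, Itga4 was lower 1.57-fold (exact permutation p = 0.1) and Itga5 2.77-fold (exact permutation p = 0.2). Itga4 over Itgb7 was lower 2.14-fold (exact permutation p = 0.2). Adjusted over the 7 pairs the exact p was 0.14 or 0.2 for each. In all of these 7 ratios the alpha chain, or Itgax in the first, made up less of the pair in the treated samples. The smallest gap between groups was for Itga4 over Itgb7, where PBS replicate 3 and IRF5-NP replicate 1 were both at -0.86. Several genes, Itgb2 among them, enter more than 1 ratio, so that the ratios are not separate results. How many other pairs of panel genes would not overlap was not computed, and of single panel genes 37.4% did not.

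**Figure D3:**
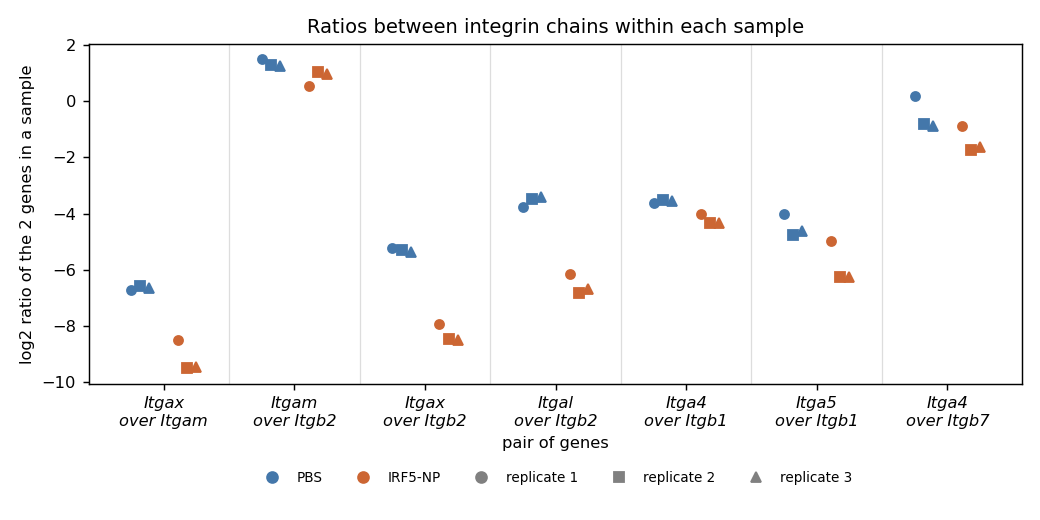
Log2 ratio of the named pair of genes in each sample (vertical axis), PBS in blue and IRF5-NP in orange, with the replicate number as the marker shape. The treated samples sit lower in each pair. For Itgal over Itgb2 the group means differed 7.74-fold, and the ratios of Itgax in the treated samples rest on values near or below background.

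Of the ligands of these receptors 10 of 26 listed genes were on the panel, and 1 passed in the unblocked fit, as lower, with a median log2 fold change of 0.04. Over the panel 9.55% of genes passed in this fit, 7.03% as lower, so that 1 of 10 is near the panel share. The gene that fell was Cdh1 (E-cadherin, the ligand of an Itgb7 integrin), with 80.9 to 97.6 normalized counts with PBS and 35.2 to 40.8 with IRF5-NPs, the latter below background in 2 of the 3 samples (log2 fold change -1.19, limma adjusted p = 0.0363). Fn1 (fibronectin, bound by Itga5 and Itga4 integrins) had 15752, 32947 and 31764 normalized counts with PBS and 51654, 71276 and 64349 with IRF5-NPs. Its groups did not overlap, and the log2 fold change of 1.45 did not pass (limma adjusted p = 0.0683, and 0.0507 with the block). Vcam1, the ligand of VLA-4, had 894, 430 and 423 normalized counts with PBS and 263, 288 and 275 with IRF5-NPs (log2 fold change -1.16, limma adjusted p = 0.0583). Icam1, the ligand of LFA-1 and Mac-1, was at -0.31 (limma adjusted p = 0.514), with overlapping groups. C3, the source of the iC3b that complement receptors 3 and 4 bind, was at -0.04 (95% interval -0.59 to 0.51, limma adjusted p = 0.944). With the replicate block Cyr61, a matrix protein bound by integrins, was lower too, at -0.86 (limma adjusted p = 0.0329).

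Of the adaptor and signalling genes 3 of 29 were measured and 0 passed, and at an unadjusted p under 0.05 limma gave 1, Vav1. At that unadjusted threshold limma gave 191 of the 754 panel genes. Past the adjusted threshold were 7.03% of panel genes as lower and 2.52% as higher. Vav1, a guanine nucleotide exchange factor that acts after integrin binding, was lower in each treated sample (1253 to 1342 normalized counts with PBS and 756 to 853 with IRF5-NPs, log2 fold change -0.73, limma adjusted p = 0.0506) and passed with the block at -0.72 (limma adjusted p = 0.0188). The adaptor Tyrobp was at 0.52 and the kinase Syk at -0.13 (limma adjusted p = 0.425 and 0.820). Of the membrane partners of integrins 3 of 11 were measured and 0 passed in either fit, with 0 at an unadjusted p under 0.05 by limma. Among them Cd47 was at -0.30 and Plaur, the urokinase receptor, at 0.09. Of the selectins and their ligands 6 of 7 were measured and 1 rose, Selp (P-selectin), with 808, 2497 and 2471 normalized counts with PBS and 3751, 8914 and 8110 with IRF5-NPs (log2 fold change 2.19, limma adjusted p = 0.0423). Selplg, the ligand of P-selectin, was at 0.76 (limma adjusted p = 0.160). Sele and Cd34 lay below background in all samples.

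**Figure D4:**
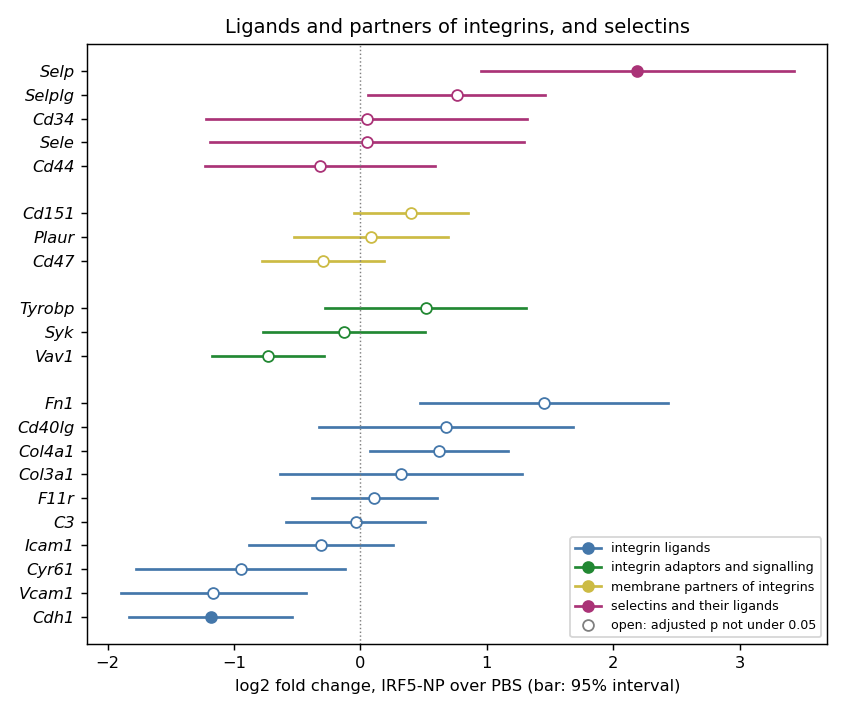
Log2 fold change of IRF5-NPs over PBS with 95% intervals from limma for ligands, adaptors and membrane partners of integrins and for selectins, colored by list, with filled markers for an adjusted p under 0.05. Selp at 2.19 and Cdh1 at -1.19 are the filled markers.

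Among the other panel genes, those with a pattern most like a member were sought over 475 genes above background in all samples, as the root mean square difference of log2 values over the 5 samples as counted, each gene centered on its own mean. For Itgam these were Cybb (0.07), the NADPH oxidase subunit of phagocytes, Clec7a (0.07), the beta-glucan receptor Dectin-1, Alcam (0.16), an adhesion molecule, Nr4a1 (0.16), a nuclear receptor, and Gnai3 (0.16), a G protein subunit. Their choice by closeness to Itgam favors a shared order of samples. Each of the 5 was higher in IRF5-NP replicates 2 and 3 than in any PBS sample, with IRF5-NP replicate 1 well below these. Of the members Itgb1 came closest to Itgam (0.18) and Itgb2 followed (0.32). For Itgax the closest were H2-DMb1 (0.16) and H2-DMa (0.19), which load peptides onto MHC class II, with Cd274 (0.19), the checkpoint ligand PD-L1, Tlr9 (0.29), an endosomal receptor for DNA, and Nampt (0.31), an enzyme of NAD synthesis. Genes chosen by closeness to Itgax, which was lower with IRF5-NPs, are lower by that choice. Itgax itself was below background in IRF5-NP replicate 3 (18 counts against 30.5), a filter that the genes searched had to pass. H2-DMb1 had 1523, 1940 and 1814 normalized counts with PBS and 483, 420 and 520 with IRF5-NPs. The integrin closest to Itgax was Itgal (0.15), nearer than any of these.

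Markers of cells that could lie in the sort gate were read beside these results. The counts of markers that passed stand beside panel shares of 2.52% as higher and 7.03% as lower. Of the dendritic cell markers, which do not include Itgax, 7 of 10 were measured and 1 fell, Cd83 (log2 fold change -1.48, limma adjusted p = 0.0361). Their sum was 1142 to 2011 normalized counts with PBS and 543 to 709 with IRF5-NPs, of which Cd83 held the larger part, and Xcr1 and Dpp4 lay below background in all samples. Of the resident (large) peritoneal macrophage markers 4 of 11 were measured and 2 rose, Timd4 (log2 fold change 2.48, limma adjusted p = 0.0155) and Selp, and their sum was 4525 to 14280 normalized counts with PBS and 18311 to 31683 with IRF5-NPs. Most of this sum was Alox15, with 2944 to 10636 normalized counts with PBS and 12977 to 19604 with IRF5-NPs, which did not pass (log2 fold change 1.61, limma adjusted p = 0.0881). For lymphocytes, which use Itgal, 0 of 8 T cell markers, 1 of 6 B cell markers and 2 of 6 NK cell markers were measured. The B cell marker Ms4a1 had 16.3 to 25.9 normalized counts with PBS, below background in all 3 samples, and 50.5 to 75.4 with IRF5-NPs, above it in 2 of 3 (limma adjusted p = 0.0351). Of the NK cell markers Nkg7 was below background in all samples and Klrk1 was at -0.34 (limma adjusted p = 0.636). Of the neutrophil markers 9 of 11 were measured, with Csf3r higher (0.88, limma adjusted p = 0.0460) and Mmp8 lower (-1.86, limma adjusted p = 0.0158). Mmp8 lay below background in IRF5-NP replicates 1 and 3. The sum of the neutrophil markers was 2252 to 6815 normalized counts with PBS and 1614 to 2556 with IRF5-NPs. Ly6g had between 22.5 and 44.2 normalized counts and was above background in IRF5-NP replicate 2 only. Of the monocyte and small peritoneal macrophage markers 7 of 11 were measured and 1 fell, Chil3. Their sum was 21709 to 28925 with PBS and 4583 to 5120 with IRF5-NPs, most of it Chil3 with PBS. The others of this list did not pass and went both ways. Nr4a1 (log2 fold change 0.74) and Irf4 (0.36) were above every PBS sample in each treated sample. Ly6c1 (-0.70) and Cx3cr1 (-0.69) were below, and Ccr2 and Retnla overlapped. With the replicate block Nr4a1 passed as higher and Cx3cr1 as lower (limma adjusted p = 0.0415 and 0.0160). Among the macrophage markers Mertk fell (log2 fold change -1.23, limma adjusted p = 0.0218). All 11 eosinophil and mast cell markers were measured, 6 of them below background in all samples, with a sum of 195 to 211 normalized counts with PBS and 200 to 304 with IRF5-NPs. The 1 that passed, as higher, was Cpa3, below background in all PBS samples and in IRF5-NP replicate 3 (limma adjusted p = 0.0327). Of the platelet markers 1 of 6 was measured, Pf4, with 3172 to 11565 normalized counts with PBS and 7196 to 14705 with IRF5-NPs (limma adjusted p = 0.420), and of the tumor and mesothelial cell markers 0 of 7. The part of these cell types in the integrin results was not tested, and in such bulk samples fewer cells of a type and less RNA per cell cannot be told apart.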

How the data were processed

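Per sample, the deposited signal is a normalized count on a linear scale for 754 genes of a NanoString myeloid panel, which also holds 8 negative and 6 positive controls. For cultured macrophages the methods describe quality control in NanoStringQCPro, then scaling in nSolver to housekeeping genes (their geometric mean) and log2 transformation. The deposited signal was not log-transformed. Each sample's gene values were whole multiples of 1 factor within 0.01 (754 of 754 genes in each sample), and the factor was 2.60 in IRF5-NP replicate 3 and 0.952 to 1.25 in the others. Division by it gave the counts used for depth, background and the chi-square test of replicates. A larger factor raises the background with the signal. The control values were read as counts as deposited, with no factor taken out, and the geometric mean of the positive controls varied 2.42-fold among the samples.

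Log2 values with a pseudocount of 1 entered a linear model (lmFit, then eBayes with a mean-variance trend, two-sided) in limma 3.58.1 under R 4.3.3. P-values were adjusted by Benjamini-Hochberg across the 754 genes, and 0.05 was the threshold. PBS replicates 2 and 3 were averaged on the log2 scale. The procedure was tested on simulated data of independent samples, in which no replicate stood apart as those numbered 1 do here. The labels do not say what a replicate number marks. The pairing was tested over 630 genes as the correlation across genes, which are not independent replicates, of deviations from the group means. Same-numbered pairs 1, 2 and 3 gave 0.20, 0.19 and 0.10, whereas PBS replicate 3 gave 0.16 with IRF5-NP replicate 2. The block was fitted on 6 separate samples as an alternative, with PBS replicates 2 and 3 counted as 2 samples. Figures and ratios were made in Python 3.11.15 with scipy 1.17.1 and matplotlib 3.10.9. All 8 integrin symbols matched RefSeq, and 6 of them had a promoter there.

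The members and lists were chosen with earlier results of these data known. The text names every integrin, the passing genes of the ligand, adaptor, partner and selectin lists with the 2 highest others of each, 7 fixed ligands, partners and sort markers where measured, and the 5 genes most like Itgam and Itgax. A gene of the selectin list that the rule names is not reported here. Vav1, Cyr61, Irf5 and marker genes beside their list were named after their values were seen. Alternatives changed the samples counted, block, pseudocount, filter, background, scaling, variance prior, weights, adjustment and test. Tests for counts were not run.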

Additional observations from a re-analysis of the deposited data

How the results depend on the processing

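Of 22 alternatives to the reported fit, Itgax was lower in all and past the threshold in 19. It missed it with background subtraction (-3.80, adjusted p = 0.282), with scaling to the positive controls (-2.72, adjusted p = 0.176) and with the methods' t-test after Benjamini-Hochberg adjustment (-1.88, adjusted p = 0.0979). Itgal was lower in all and past it in 17, and missed it in these 3 settings, without IRF5-NP replicate 3 and with Benjamini-Yekutieli adjustment. Itgam passed in none of the 22, with values between -0.26 and 1.02, and reversed to -0.26 with scaling to the positive controls. That scaling also reversed Itgb1 (-0.14) and Itga4 (-0.79), since it moved the median of all genes from -0.03 to -0.88. Relative to that median Itgam was at 0.62 there and Itgax at -1.84. A common median over all genes moved it to 0.21 and quantile normalization to 0.11. Itga4 also reversed without PBS replicate 1 (-0.10) and without IRF5-NP replicate 2 (-0.02), in a range of -0.10 to 0.23 over the samples left out.

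The number of integrin genes past the threshold as higher was 0 in the reported fit (1, Itgb2, at an unadjusted p under 0.05 by limma), and 1 with 6 separate samples, with a common median or with quantile normalization. It was 2 with array weights, with the replicate block, and with the replicates numbered 1 against the others as a block, a setting chosen after the data were seen. Panel genes higher and lower were 19 and 53 in the reported fit, 37 and 84 with 6 separate samples, and 42 and 83 with array weights. They were 52 and 83 with the replicate block, and 46 and 87 with the replicates numbered 1 as a block. With a common median they were 42 and 36, and with quantile normalization 35 and 40. The number lower was 2 in the reported fit, 3 with the replicate block, with array weights and with the replicates numbered 1 as a block, 1 with Benjamini-Yekutieli adjustment, and 0 with background subtraction, positive control scaling or the methods' t-test on 5 samples, which gave 2 on 6 separate samples (Itgax and Itgal). Over all genes that t-test passed 0 after adjustment and 125 at an unadjusted p under 0.05, against 72 and 191 by limma, and 43 with 6 separate samples, also chosen after the data were seen.

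With each sample left out in turn, 0 to 1 integrin genes were higher and 1 to 2 lower, Itgam lay between 0.39 and 1.02, Itgax between -2.10 and -1.81, and the Itgax to Itgam log2 ratio differed by -2.83 to -2.32. This ratio differed by -4.41 with background subtraction and by -2.51 with 6 separate samples. The panel genes past the threshold numbered 21 to 83 with a sample left out, 135 with the replicate block, 121 with 6 separate samples, 125 with array weights, 41 without a variance trend, 25 with background subtraction, 21 with Benjamini-Yekutieli adjustment and 14 with positive control scaling. Where fewer samples or no shared variance entered, that is the construction of the setting, and otherwise the cause was not tested. Against 6 separate samples without it, the block changed the calls of Itgb7 and Itga5 and of no other integrin gene, and Itgb2 passed in both. Leaving out PBS replicate 1 keeps 1 PBS sample, whose spread is then taken from the IRF5-NP samples. The count-based tests planned were not run, because a check of units did not accept the counts of the 3 IRF5-NP samples as recovered. The gene values of these samples were nevertheless whole multiples of 1 factor in 754 of 754 genes, like those of the PBS samples. Signal near background limits the size of the Itgax change.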
